A study of Sus scrofa with 4 samples.

Results

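The genes described are 10 members of the integrated stress response and the unfolded protein response, measured by RNA sequencing in 4 pig kidneys. They were taken by symbol (ATF4, DDIT3, TRIB3, ASNS, CHAC1, GDF15, SESN2, HSPA5, HERPUD1 and XBP1), and all 10 were found among the 26466 symbols of the count files. Each of 4 groups had 1 library. The transplanted kidneys, called grafts here, had been placed in non-human primates: 1 came from a GalT-/-;hCD39;hCD46;hCD55;TBM pig 6 weeks after transplantation and 1 from a GalT-/-;hCD39;hCD55 pig 4 weeks after. An untransplanted kidney of each genotype is the comparison. All 4 kidneys therefore lacked the galactosyltransferase that makes the alpha-Gal antigen and carried human CD39 and CD55, and the CD39/CD46/CD55/TBM kidneys also carried CD46 and thrombomodulin (TBM). The stated purpose of the series was the choice of a donor genotype that eases rejection. No wild type pig is among the libraries, and the sources used here give no ages, strains or transgene promoters. Between the grafts, genotype, weeks after transplantation and recipient cannot be told apart.

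The integrated stress response lowers general protein synthesis by phosphorylation of the initiation factor eIF2alpha, while translation of the transcription factor ATF4 goes up. ATF4 then drives genes of amino acid supply and, through DDIT3 (also called CHOP), genes of cell death. The unfolded protein response is the reaction to misfolded protein in the endoplasmic reticulum (ER): the sensor PERK feeds into ATF4, whereas the sensors IRE1 and ATF6 act through XBP1 and ATF6 itself to raise ER chaperones and the disposal of misfolded protein. In the kidney these responses are known from tubule cells under ischaemia, toxins, protein overload or lack of nutrients. ATF4 and XBP1 are controlled in part by translation and by splicing, and counts per gene measure neither.

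Total counts lay between 10346863 and 14092905 per library. Ribosomal RNA loci took 18.9% and 22.4% of counts in the CD39/CD46/CD55/TBM and CD39/CD55 grafts, against 12.6% and 10.8% in the untransplanted kidneys of the same genotypes, and mitochondrially encoded genes took 12.6% and 4.23% against 15.0% and 10.6%. The log2 ratios of the 10 genes stayed within their counting intervals when these 2 classes were left out of the scaling. Levels are given as CPM, the share of the library after TMM scaling (scaled CPM), and a log2 ratio is the graft over the untransplanted kidney of its genotype with an exact 95% interval for counting error. A gene was called higher or lower in such a pair when it differed at least 2-fold and the interval excluded no difference. With 1 library per group these pairs have no replicate check and carry no p-value. Over both genotypes, 2 grafts were tested against 2 untransplanted kidneys with edgeR's quasi-likelihood test, and a gene is said to rise or fall only where its adjusted p there was under 0.05. Kidney markers fitted the label: UMOD, LRP2 and NPHS1 were counted in all 4 libraries, although the collecting duct water channels AQP2 and AQP3 had at most 27 counts and 1 count in any library.

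The transcription factor genes ATF4 and DDIT3 were higher in both grafts, and XBP1 was lower in both. ATF4 (chromosome 5, 8742964 to 8745752, Sscrofa11.1), the central factor of the integrated stress response, had 169 scaled CPM (1752 counts) in the CD39/CD46/CD55/TBM graft and 69.3 (877 counts) in the untransplanted kidney of that genotype. The CD39/CD55 pair had 149.7 scaled CPM (1854 counts) in the graft and 44.8 (616 counts) in the untransplanted kidney. Both grafts thus lay above both untransplanted kidneys, as they did for 26.3% of all genes. The log2 ratios were 1.29 (95% counting interval 1.17 to 1.41) in CD39/CD46/CD55/TBM and 1.74 (1.61 to 1.87) in CD39/CD55, and ATF4 was called higher in each.

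DDIT3 (chromosome 5, 22785441 to 22789867) encodes CHOP, a factor that acts with ATF4 under sustained stress. It had 44.0 scaled CPM (456 counts) in the CD39/CD46/CD55/TBM graft and 16.6 (210 counts) in the untransplanted kidney. The CD39/CD55 pair had 26.8 (332 counts) in the graft and 14.4 (198 counts) in the untransplanted kidney. The groups did not overlap here either, and the CD39/CD46/CD55/TBM graft was the highest of the 4 libraries. Its log2 ratio was 1.41 (1.17 to 1.65) in the CD39/CD46/CD55/TBM pair, a call, and 0.89 (0.64 to 1.16) in CD39/CD55, under the 2-fold limit. DDIT3 overlaps the methionyl-tRNA synthetase gene MARS in the RefSeq table, so reads of the pair may be shared. MARS had 275 and 280 counts in the CD39/CD46/CD55/TBM and CD39/CD55 grafts, against 231 and 204 in the untransplanted kidneys of the same genotypes.

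XBP1 (chromosome 14, 46011239 to 46016526), the factor that IRE1 activates by splicing its RNA, went the other way. It had 26.1 scaled CPM (270 counts) in the CD39/CD46/CD55/TBM graft and 67.4 (853 counts) in the untransplanted kidney. Values in CD39/CD55 were 55.6 (689 counts) in the graft and 77.2 (1060 counts) in the untransplanted kidney. Both grafts lay below both untransplanted kidneys, as they did for 25.5% of all genes. The XBP1 difference was the larger in CD39/CD46/CD55/TBM. The log2 ratios were -1.37 (-1.57 to -1.17) in CD39/CD46/CD55/TBM, a call, and -0.47 (-0.61 to -0.33) in CD39/CD55, no call.

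**Figure D1:**
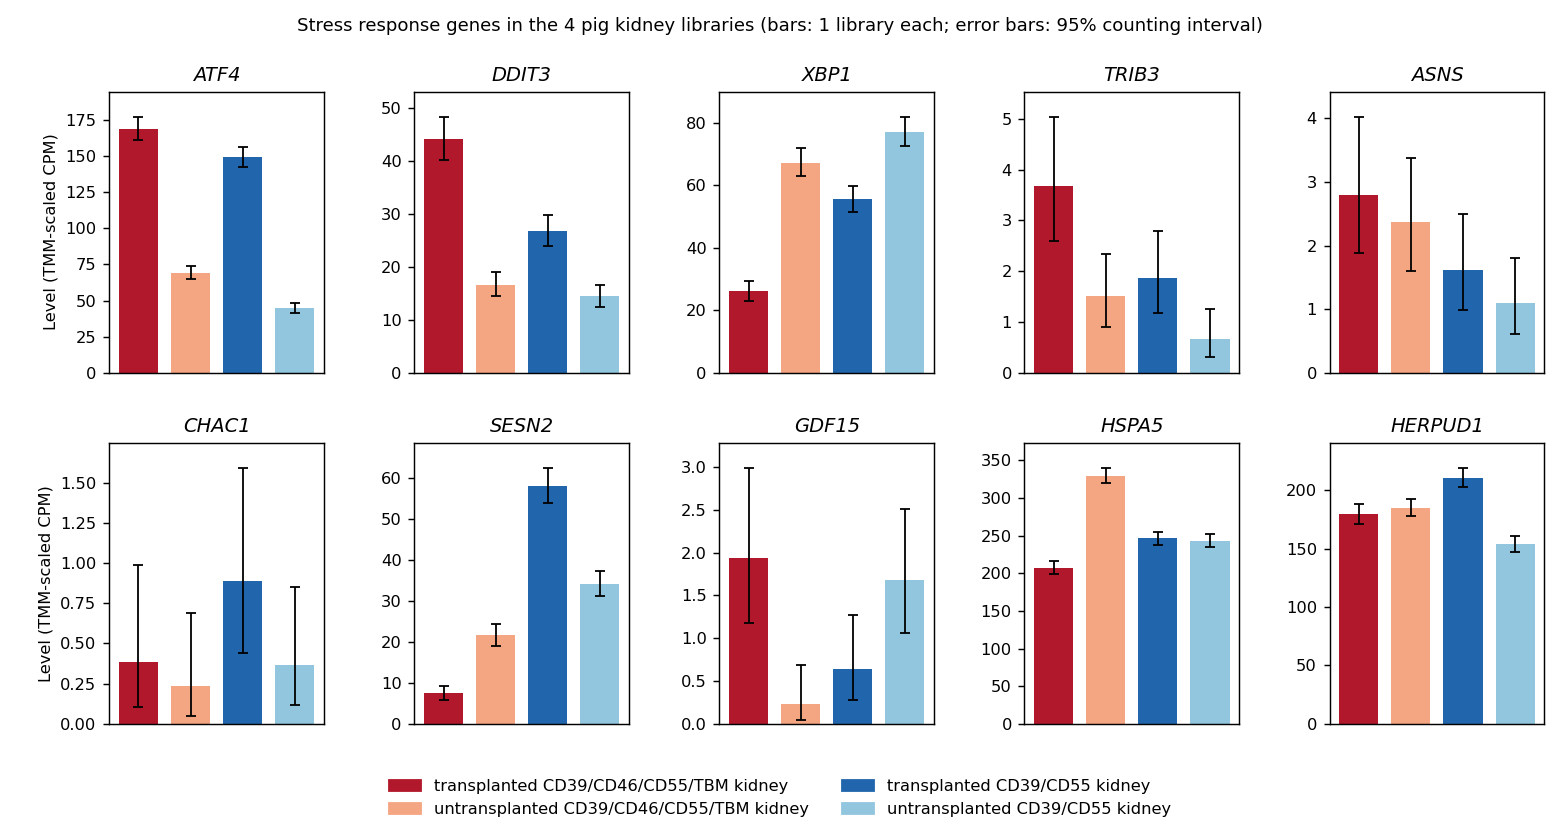
Level of each of the 10 genes in the 4 libraries, in TMM-scaled CPM on linear axes that start at 0. Each bar is 1 library and error bars are exact 95% Poisson counting intervals. ATF4 and DDIT3 are higher in both grafts than in both untransplanted kidneys, XBP1 is lower in both, and SESN2 and GDF15 differ in opposite directions in the 2 genotypes.

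The targets of ATF4 and CHOP did not share 1 direction. TRIB3 (chromosome 17, 34808273 to 34819592), a pseudokinase that dampens the same pathway, had 3.67 scaled CPM (38 counts) in the CD39/CD46/CD55/TBM graft and 1.5 (19 counts) in the untransplanted kidney. The CD39/CD55 values were 1.86 (23 counts) in the graft and 0.655 (9 counts) in the untransplanted kidney. It was called higher in both genotypes, with log2 ratios of 1.27 (0.46 to 2.17) in CD39/CD46/CD55/TBM and 1.46 (0.34 to 2.80) in CD39/CD55. Among the 10 genes only ATF4 and TRIB3 were called higher in both pairs, where 5.88% of all 18168 genes tested were.

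ASNS (chromosome 9, 77318341 to 77336290), which makes asparagine, had few counts and no call. It had 2.80 scaled CPM (29 counts) in the CD39/CD46/CD55/TBM graft and 2.37 (30 counts) in the untransplanted kidney, and 1.62 (20 counts) and 1.09 (15 counts) in the CD39/CD55 graft and untransplanted kidney. CHAC1 (chromosome 1, 130360510 to 130363332), an enzyme that degrades glutathione, had 4 and 11 counts in the CD39/CD46/CD55/TBM and CD39/CD55 grafts and 3 and 5 in the untransplanted kidneys. It reached the minimum of 10 counts in 1 library, the CD39/CD55 graft. For both genes the intervals of graft over untransplanted kidney were wide and included no difference. The log2 ratios of ASNS were 0.24 (-0.55 to 1.03) in CD39/CD46/CD55/TBM and 0.55 (-0.47 to 1.63) in CD39/CD55. Those of CHAC1 were 0.65 (-1.86 to 3.48) in CD39/CD46/CD55/TBM and 1.21 (-0.36 to 3.16) in CD39/CD55.

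SESN2 and GDF15 differed in opposite directions in the genotypes. SESN2 (chromosome 6, 85321982 to 85348044) encodes sestrin 2, a leucine-binding inhibitor of mTORC1 that answers to ATF4, p53 and NRF2. It had 7.44 scaled CPM (77 counts) in the CD39/CD46/CD55/TBM graft and 21.6 (274 counts) in the untransplanted kidney, a log2 ratio of -1.53 (-1.93 to -1.17) and a call. The CD39/CD55 pair had 58.1 (719 counts) in the graft and 34.2 (470 counts) in the untransplanted kidney, a log2 ratio of 0.76 (0.59 to 0.93) and no call. The 2 grafts were thus the lowest and the highest of the 4 libraries.

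GDF15 (chromosome 2, 59409035 to 59411356), a secreted stress hormone of the TGF-beta family, had the opposite order on far fewer counts. It had 1.93 scaled CPM (20 counts) in the CD39/CD46/CD55/TBM graft and 0.237 (3 counts) in the untransplanted kidney, a log2 ratio of 2.84 (1.27 to 5.42). In CD39/CD55 it had 0.646 (8 counts) in the graft and 1.67 (23 counts) in the untransplanted kidney, a log2 ratio of -1.32 (-2.74 to -0.16). The difference between the genotypes' log2 ratios, CD39/CD46/CD55/TBM minus CD39/CD55, was -2.30 (95% Wald counting interval -2.70 to -1.90) for SESN2 and 4.16 (2.17 to 6.15) for GDF15. These were the members called in that difference, 1 lower and 1 higher, where 11.5% and 10.4% of all genes were called lower and higher. Ratios of opposite sign with both intervals excluding no difference were found for 2 of the 10 genes and for 7.57% of all genes.

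The 2 genes of the ER itself differed by less than 2-fold in both pairs. HSPA5 (chromosome 1, 265930044 to 265934959), which encodes BiP, the main chaperone of the ER lumen, had 207 scaled CPM (2146 counts) in the CD39/CD46/CD55/TBM graft and 329 (4169 counts) in the untransplanted kidney. In CD39/CD55 it had 246 (3051 counts) in the graft and 243 (3343 counts) in the untransplanted kidney. The log2 ratios were -0.67 (-0.74 to -0.59) in CD39/CD46/CD55/TBM and 0.02 (-0.05 to 0.09) in CD39/CD55. HERPUD1 (chromosome 6, 18901171 to 18913427), a membrane protein of ER-associated degradation, had 179.6 scaled CPM (1860 counts) in the CD39/CD46/CD55/TBM graft and 185 (2344 counts) in the untransplanted kidney. In CD39/CD55 it had 211 (2609 counts) in the graft and 153.9 (2114 counts) in the untransplanted kidney. Its log2 ratios were -0.04 (-0.13 to 0.04) and 0.45 (0.37 to 0.54) in the same genotypes, and neither ER gene was called in either pair.

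**Figure D2:**
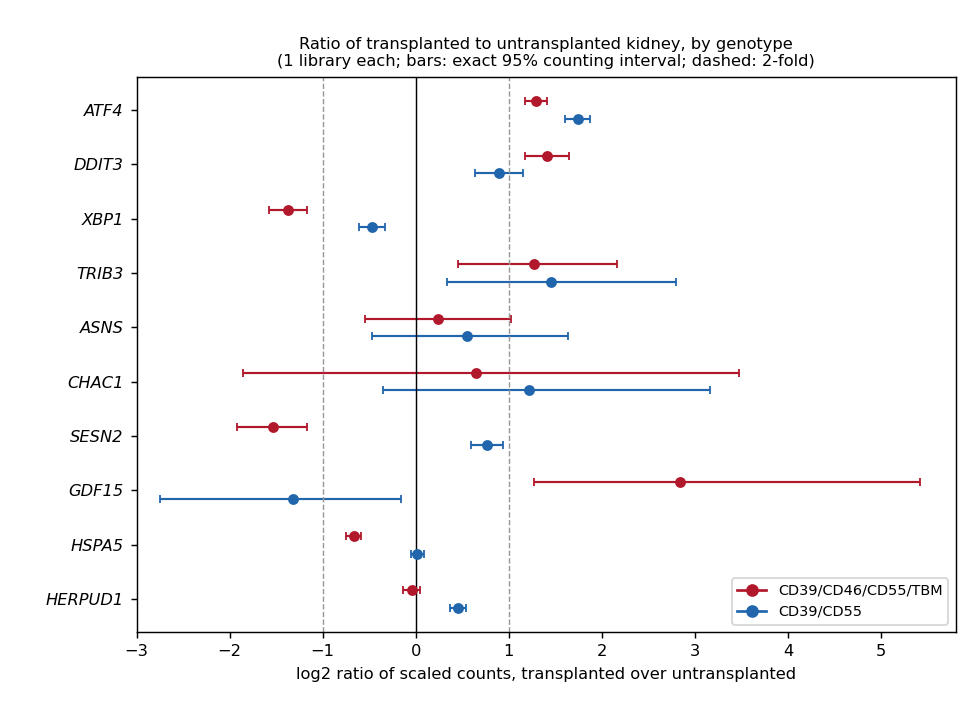
Log2 ratio of graft over untransplanted kidney for each gene, in CD39/CD46/CD55/TBM (red) and CD39/CD55 (blue). Points are single pairs of libraries, bars are exact 95% counting intervals and dashed lines mark 2-fold. ATF4, DDIT3 and TRIB3 lie right of 0 in both genotypes and XBP1 left of 0, while SESN2 and GDF15 lie on opposite sides.

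In CD39/CD46/CD55/TBM, 4 of the 10 genes were called higher and 2 lower in the graft, where 15.9% and 16.3% of all genes were. In CD39/CD55, 2 were called higher and 1 lower, where 13.2% and 13.7% of all genes were. Both grafts lay above both untransplanted kidneys for 4 members (ATF4, DDIT3, TRIB3 and CHAC1) and below for 1 (XBP1), against 26.3% and 25.5% of all genes. CHAC1 was above on 4 counts in the CD39/CD46/CD55/TBM graft against 5 in the untransplanted CD39/CD55 kidney, where the counting intervals overlap. It reached 10 counts only in the CD39/CD55 graft, so its place is not read as a difference. The median log2 ratio of the 10 genes was 0.45 in CD39/CD46/CD55/TBM and 0.66 in CD39/CD55, and that of all genes was 0.01 and 0.03.

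None of the 10 genes passed edgeR's quasi-likelihood test over both genotypes, in which 1.24% of all genes rose and 2.71% fell. For ATF4 the log2 fold change was 1.48 (SE 0.43, n = 2 each, adjusted p = 0.0786), and for DDIT3 it was 1.19 (SE 0.43, adjusted p = 0.145). These were the members with an unadjusted p under 0.05, 2 of 10, both higher, where 8.99% of all genes were higher and 10.7% lower at that limit. DESeq2's Wald test called 1 of the 10, ATF4 (adjusted p = 0.0151), and limma voom called 0. Of all genes, DESeq2 called 431 higher and 865 lower, and limma voom 154 and 446. With genotype as a block, ATF4 and DDIT3 passed (adjusted p = 0.00286 and 0.0211), and they also passed without the CD39/CD55 graft, with adjusted p of 0.0235 and 0.0275. Adjusted p over all alternatives ranged from 0.00286 to 0.537 for ATF4 and from 0.0211 to 0.556 for DDIT3. XBP1 had -0.82 (SE 0.45, adjusted p = 0.333), TRIB3 1.35 (SE 0.73, adjusted p = 0.327) and HSPA5 -0.34 (SE 0.44, adjusted p = 0.714). For SESN2 (0.23, SE 0.68) and GDF15 (0.40, SE 0.96) the fold change over both genotypes averages opposite values. SESN2 turned to -1.90 without the CD39/CD55 graft.

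Upstream of ATF4, transcripts of the eIF2alpha kinases and the initiation factors showed no common direction. Of 13 genes for the kinases, eIF2 and its exchange factor eIF2B, none passed the test over both genotypes in edgeR, DESeq2 or limma. At an unadjusted p under 0.05, 1 was lower, where 10.7% of all genes were in edgeR. EIF2AK3, which encodes PERK, had 557 and 471 counts in the CD39/CD46/CD55/TBM and CD39/CD55 grafts, against 508 and 335 in the untransplanted kidneys of the same genotypes. Its log2 ratios were 0.42 and 0.64. EIF2B1, a subunit of the exchange factor, had 82 and 161 counts in the grafts against 254 and 291, with log2 ratios of -1.34 (-1.72 to -0.98) and -0.70 (-0.99 to -0.42). EIF2B5, another subunit, had 152 and 190 counts against 165 and 100, with log2 ratios of 0.17 and 1.07. The medians of the list were -0.15 and 0.06.

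No feedback gene that restores translation passed a test. PPP1R15A, which encodes GADD34, the stress-induced partner of the eIF2alpha phosphatase, had 162 and 62 counts in the CD39/CD46/CD55/TBM and CD39/CD55 grafts, against 158 and 79 in the untransplanted kidneys. Its log2 ratios of 0.33 and -0.20 differ in sign. DNAJC3, which inhibits PERK from within the ER, had 520 and 735 counts against 491 and 420, with log2 ratios of 0.37 (0.19 to 0.55) and 0.96 (0.78 to 1.13). The phosphatase gene PPP1CC had 58 and 46 counts against 42 and 32. None of the 5 listed genes passed with edgeR, DESeq2 or limma, and 0 had an unadjusted p under 0.05 in any of these.

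Among bZIP partners and other stress factors, 2 of 10 tested genes rose and none fell over both genotypes. Of all genes, 1.24% rose and 2.71% fell. NUPR1, a small chromatin protein induced by ATF4, had 3372 and 3179 counts in the CD39/CD46/CD55/TBM and CD39/CD55 grafts, against 536 and 180 in the untransplanted kidneys, and rose (log2 fold change 3.39, SE 0.58, adjusted p = 0.00841). BATF2, an interferon-induced bZIP factor, rose with 57 and 41 counts against 10 and 4 (3.01, SE 0.73, adjusted p = 0.0387). BATF2 did not pass with limma voom (adjusted p = 0.0677), without the untransplanted CD39/CD55 kidney (0.195) or without the CD39/CD46/CD55/TBM graft (0.106), and its adjusted p ranged from 0.00173 to 0.195. CEBPG, a dimer partner of ATF4, was called higher in both pairs, with 247 and 344 counts against 146 and 174 and log2 ratios of 1.05 and 1.13 (adjusted p = 0.164). ATF3, a factor downstream of ATF4, had 509 and 280 counts against 1398 and 300, and was called lower in CD39/CD46/CD55/TBM (log2 ratio -1.17, -1.32 to -1.02). CEBPB was listed at 0 in all 4 libraries. The list's medians were 0.49 in CD39/CD46/CD55/TBM and 0.42 in CD39/CD55.

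Genes of serine, one-carbon and proline synthesis, many of them ATF4 targets, included 9 of 14 that were lower in both grafts than in both untransplanted kidneys, where 25.5% of all genes were. Of the 14 genes, 2 fell and none rose over both genotypes, where 2.71% and 1.24% of all genes did. Called lower in both pairs were 5 (GPT2, MTHFD2, PHGDH, PSAT1 and SHMT2), against 7.63% of all genes. PHGDH, the first enzyme of serine synthesis, fell, with 123 and 239 counts in the CD39/CD46/CD55/TBM and CD39/CD55 grafts against 831 and 1453 in the untransplanted kidneys (log2 fold change -2.46, SE 0.46, adjusted p = 0.0126). SHMT2, the mitochondrial enzyme that splits serine, fell, with 82 and 165 counts against 518 and 663 (-2.07, SE 0.44, adjusted p = 0.0221). SHMT2 did not pass without the CD39/CD46/CD55/TBM graft (adjusted p = 0.0654, range 7.95e-05 to 0.0654 over the alternatives). PSAT1, the next enzyme after PHGDH, had 1100 and 2195 counts against 4933 and 5329, with log2 ratios of -1.87 and -1.13 (adjusted p = 0.106). The medians of the list were -1.06 and -0.99, while those of all genes were 0.01 and 0.03.

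Summed levels of markers of the proximal tubule and of other kidney cells were lower in the grafts. The summed level of 10 proximal tubule markers was 3375 and 10005 scaled CPM in the CD39/CD46/CD55/TBM and CD39/CD55 grafts, against 14768 and 17667 in the untransplanted kidneys. Over both genotypes 6 of the 10 markers fell and none rose, where 2.71% and 1.24% of all genes did. Of the markers, SLC22A6 was at 0 in the CD39/CD46/CD55/TBM graft. Markers of the thick ascending limb and distal tubule summed to 574.8 and 795 scaled CPM in the same grafts against 1801 and 3734, and 2 of 8 fell. In CD39/CD46/CD55/TBM 1 of the 8 was called higher and 4 lower, where 15.9% and 16.3% of all genes were. In CD39/CD55 it was 1 (CALB1, log2 ratio 1.06) and 3, where 13.2% and 13.7% of all genes were, and SLC12A1 had a log2 ratio of 0.03. Podocyte markers summed to 208 and 133 against 409 and 383 (2 of 6 fell), endothelial markers to 172 and 186 against 271 and 308 (1 of 8 fell), collecting duct markers to 298 and 346 against 475 and 475 (none of 8 tested fell), and fibroblast markers to 300.4 and 544 against 470.1 and 826 (none of 7 fell). None of these markers rose, but FOXI1 of the collecting duct list and PDGFRA of the fibroblast list were called higher in both pairs. The share of all genes called so was 5.88%. The median log2 ratio of the collecting duct markers was -0.77 in CD39/CD46/CD55/TBM and 0.46 in CD39/CD55. In bulk tissue, fewer cells of a type and less RNA per cell cannot be told apart, and the part of these markers in the values of XBP1, SESN2, PHGDH and SHMT2 was not tested.

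Amino acid transporter genes of the ATF4 program went both ways. None of 11 tested genes passed in edgeR or limma, and DESeq2 called 1 higher. In edgeR 3 were higher and 1 lower at an unadjusted p under 0.05, where 8.99% and 10.7% of all genes were. SLC38A1, a glutamine transporter, had 686 and 265 counts in the CD39/CD46/CD55/TBM and CD39/CD55 grafts, against 167 and 95 in the untransplanted kidneys. Its log2 ratios were 2.33 (2.08 to 2.58) and 1.62 (1.29 to 1.98), and its adjusted p was 0.0544, with a range of 3.01e-05 to 0.366 over the alternatives. SLC7A5, a large neutral amino acid transporter, had 4 and 27 counts against 15 and 361. The untransplanted CD39/CD55 kidney alone held the high value of SLC7A5, and without it the log2 fold change was 0.13, against -3.38 with all 4 libraries. The medians of the list were 0.68 and 0.43.

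Of the tRNA synthetase genes, some of them ATF4 targets, none of 20 passed in edgeR, DESeq2 or limma. In edgeR 2 were lower at an unadjusted p under 0.05, where 10.7% of all genes were. AARS, the alanyl-tRNA synthetase gene, had 275 and 381 counts in the CD39/CD46/CD55/TBM and CD39/CD55 grafts, against 455 and 1322 in the untransplanted kidneys, with log2 ratios of -0.44 (-0.66 to -0.22) and -1.64 (-1.81 to -1.48). FARSA, a subunit of the phenylalanyl enzyme, had 68 and 152 counts against 155 and 347. The list's medians were -0.11 and -0.50.

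Among other targets of ATF4 or CHOP, BBC3 was the 1 of 11 that rose, and none fell, where 1.24% and 2.71% of all genes did. BBC3 encodes PUMA, a BH3-only protein that promotes cell death and is also a target of p53. It had 222 and 341 counts in the CD39/CD46/CD55/TBM and CD39/CD55 grafts, against 49 and 73 in the untransplanted kidneys. The log2 ratios were 2.46 (2.02 to 2.95) and 2.37 (2.01 to 2.76), and the log2 fold change over both genotypes was 2.41 (SE 0.45, adjusted p = 0.0131). BBC3 passed under all 10 alternatives, with adjusted p of 5.87e-05 to 0.0416. The hormone gene FGF21 had at most 1 count in a library and STC2 at most 3.

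**Figure D3:**
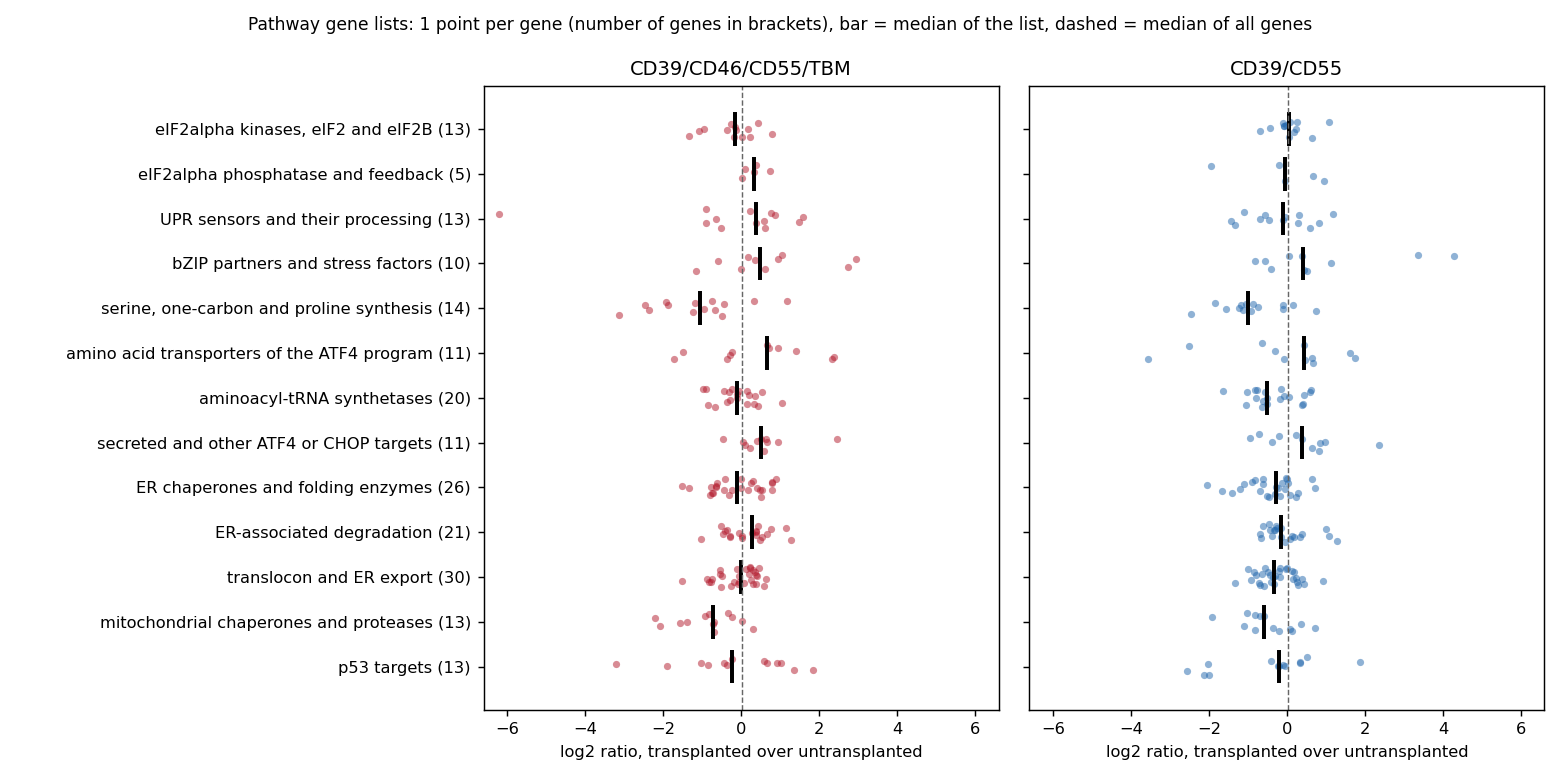
Log2 ratio of graft over untransplanted kidney for every tested gene of each pathway list, in CD39/CD46/CD55/TBM (left) and CD39/CD55 (right). Points are genes, black bars are the median of a list and the dashed line is the median of all genes. Medians of serine, one-carbon and proline synthesis (-1.06 and -0.99) and of mitochondrial chaperones (-0.71 and -0.60) lie farthest to the left.

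The sensors of the unfolded protein response showed no common direction. None of 13 genes for the sensors, their proteases and related ER-bound factors passed in edgeR, DESeq2 or limma. At an unadjusted p under 0.05, 2 were lower, where 10.7% of all genes were in edgeR. ERN1, which encodes IRE1alpha, had 428 and 426 counts in the CD39/CD46/CD55/TBM and CD39/CD55 grafts, against 287 and 390 in the untransplanted kidneys, with log2 ratios of 0.87 (0.65 to 1.09) and 0.28 (0.08 to 0.48). ATF6 had 1144 and 805 counts against 917 and 1311, and its log2 ratios of 0.61 (0.48 to 0.74) and -0.55 (-0.68 to -0.43) have opposite signs. Its paralog ATF6B had 169 and 224 counts against 389 and 629 (log2 ratios -0.91 and -1.34, adjusted p = 0.148). CREB3L3, a related ER-bound factor best known in liver, had 0 and 49 counts against 271 and 56. It was at least 73.9-fold lower in the CD39/CD46/CD55/TBM graft, taking 3 counts as the floor of that library, and had a log2 ratio of -0.04 (-0.63 to 0.54) in CD39/CD55. Over both genotypes CREB3L3 had an adjusted p of 0.193 in edgeR's quasi-likelihood test, with a range of 2.96e-07 to 0.669. It passed in 4 of 10 alternatives: without the CD39/CD55 graft, without the untransplanted CD39/CD55 kidney, with no filter on counts, and with a block for genotype. Its log2 fold change lay between -10.28 and -1.02 when 1 library was left out.

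ER chaperones and folding enzymes, the classical output of ATF6 and XBP1, had no member higher in a call. Of 26 genes none passed in edgeR or limma, and DESeq2 called 2 lower. In edgeR 3 were lower at an unadjusted p under 0.05, where 10.7% of all genes were. CALR, which encodes the calcium-binding chaperone calreticulin, was called lower in both pairs, with 2053 and 2727 counts in the CD39/CD46/CD55/TBM and CD39/CD55 grafts against 6278 and 12621 in the untransplanted kidneys. Its log2 ratios were -1.32 (-1.39 to -1.25) and -2.06 (-2.12 to -2.00), and its adjusted p was 0.0705, with a range of 0.00323 to 0.483. FKBP14, a folding enzyme of the ER, had 70 and 79 counts against 245 and 278 (-1.51 and -1.66, adjusted p = 0.0604). HSP90B1, the ER chaperone GRP94, had 3693 and 3641 counts against 7482 and 7448, with log2 ratios of -0.73 (-0.79 to -0.67) and -0.88 (-0.94 to -0.83). The list's medians were -0.11 and -0.28, and both grafts lay below both untransplanted kidneys for 12 of the 26 genes, against 25.5% of all genes.

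Genes of ER-associated degradation, the disposal route in which HERPUD1 acts, included 2 of 21 that were called higher in both pairs, where 5.88% of all genes were. SELENOS, a selenoprotein of the ER membrane, had 329 and 295 counts in the CD39/CD46/CD55/TBM and CD39/CD55 grafts, against 165 and 162 in the untransplanted kidneys (log2 ratios 1.28 and 1.01, adjusted p = 0.144). UBE2J1, a ubiquitin-conjugating enzyme of the ER, had 164 and 140 counts against 90 and 73 (1.15 and 1.08, adjusted p = 0.200). None of the 21 passed in edgeR, DESeq2 or limma, and 2 were higher at an unadjusted p under 0.05 in each. In edgeR 8.99% of all genes were higher at that limit. Of 30 genes of the translocon and of export from the ER, none passed in edgeR, DESeq2 or limma either. In edgeR 2 of the 30 were lower at an unadjusted p under 0.05, where 10.7% of all genes were. SEC62, a translocon subunit, had 1816 and 1659 counts against 6302 and 3286, and DDOST, a subunit of the oligosaccharyltransferase, had 342 and 505 against 773 and 1119.

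Mitochondrial chaperones and proteases, whose induction marks protein stress in mitochondria, had medians below 0 in both pairs. HSPE1, the co-chaperonin of HSP60, was the 1 of 13 that fell, with 704 and 1055 counts in the CD39/CD46/CD55/TBM and CD39/CD55 grafts against 3639 and 4406 in the untransplanted kidneys (log2 fold change -1.99, SE 0.44, adjusted p = 0.0267). HSPE1 did not pass without the CD39/CD46/CD55/TBM graft (adjusted p = 0.0722) or without the untransplanted CD39/CD55 kidney (0.0706), and over the alternatives its adjusted p lay between 0.000113 and 0.0722. None rose, and the medians were -0.71 and -0.60. Over both genotypes 2.71% of all genes fell and 1.24% rose.

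**Figure D4:**
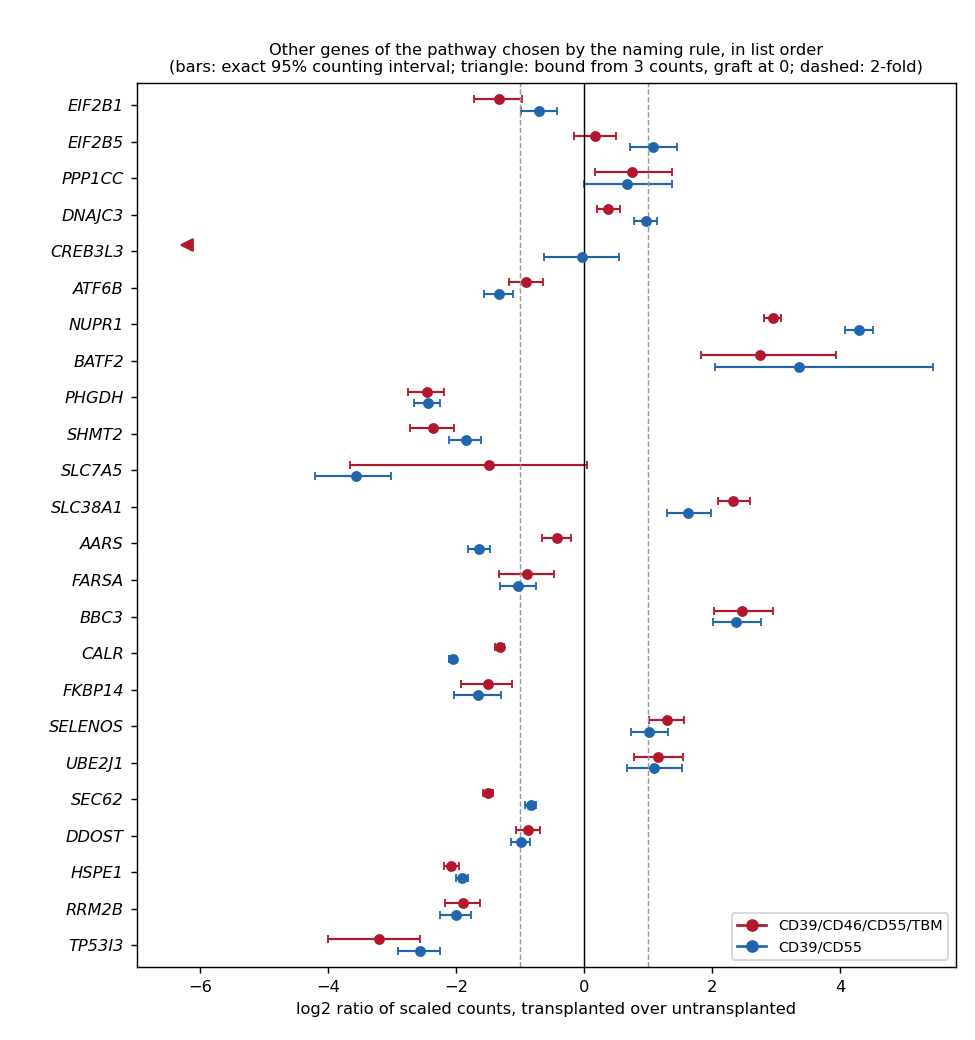
Log2 ratio of graft over untransplanted kidney for 24 other genes of the pathway, in CD39/CD46/CD55/TBM (red) and CD39/CD55 (blue), with exact 95% counting intervals. The triangle marks CREB3L3 at its bound, as the graft had no count. NUPR1, BATF2, SLC38A1, BBC3, SELENOS and UBE2J1 lie beyond the 2-fold line on the right in both genotypes. PHGDH, SHMT2, SLC7A5, CALR, FKBP14, HSPE1, RRM2B and TP53I3 lie beyond it on the left.

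Plasma cells depend on XBP1, so their markers are set beside it. The summed level of 11 plasma and B cell markers was 24.6 and 48.2 scaled CPM in the CD39/CD46/CD55/TBM and CD39/CD55 grafts, against 94.6 and 145.0 in the untransplanted kidneys. JCHAIN had 3 and 24 counts against 45 and 41. MZB1, CD79A, CD79B and MS4A1 had at most 8 counts in any library, and the 1 of 5 tested that fell was SDC1, which epithelia also express. SDC1 had 129 and 169 counts against 943 and 1607. It made up most of the sum in both untransplanted kidneys, so the lower sums in the grafts do not speak for the other markers. In CD39/CD55, PRDM1, which plasma cells and other cells express, was called higher (98 and 33 counts, log2 ratio 1.71, 1.14 to 2.34), JCHAIN was not called, and the median of the 5 tested markers was -0.12. In CD39/CD46/CD55/TBM 3 of the 5 were called lower and 0 higher, where 16.3% and 15.9% of all genes were. Their median was -1.77 in that pair. Macrophage markers summed to 16.4 and 11.0 scaled CPM against 77.0 and 84.6, with C1QC at 0 in both grafts. Of these markers 7 of 10 fell, where 2.71% of all genes did. CD14 of the same list was called higher in both pairs, with 41 and 48 counts against 12 and 21 and log2 ratios of 2.02 (1.11 to 3.13) and 1.32 (0.57 to 2.16), and had an adjusted p of 0.165. The part of these cells in the levels of XBP1 was not tested.

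The genotypes were also compared within each state. Between the grafts, CD39/CD46/CD55/TBM over CD39/CD55, GDF15 was called higher (20 and 8 counts, log2 ratio 1.53, 0.34 to 2.97), and SESN2 (77 and 719, -2.96, -3.32 to -2.62) and XBP1 (270 and 689, -1.09, -1.30 to -0.89) were called lower. These are 1 and 2 of 10 genes, where 11.0% of all genes were called in each direction. ATF4 differed by 0.18 (0.08 to 0.27) and DDIT3 by 0.72 (0.51 to 0.92), without a call. Between the untransplanted kidneys, ASNS was called higher (30 and 15 counts, 1.09, 0.18 to 2.12) and GDF15 lower (3 and 23, -2.63, -5.20 to -1.09), where 8.17% and 7.88% of all genes were called. SESN2 had a log2 ratio of -0.66 (-0.88 to -0.44) and ATF4 of 0.63 (0.48 to 0.78) in that pair.

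Over both states none of the 10 genes differed between genotypes in edgeR's quasi-likelihood test, nor did any of the 18168 genes tested (0%). At an unadjusted p under 0.05, 190 genes were higher and 259 lower in CD39/CD46/CD55/TBM, that is 1.05% and 1.43%, and of the members 1, SESN2, was lower (log2 fold change -1.66, SE 0.62, adjusted p = 0.982). DESeq2 called 12 genes higher and 5 lower, none of them a member, and limma called 0. A fit with state as a block called 133 genes higher and 171 lower. With state as a block, SESN2 passed (-1.78, adjusted p = 0.0255), and over all alternatives its adjusted p ranged from 0.0255 to 1.0.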

How the data were processed

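Total RNA came from a phenol and chloroform extraction, and libraries from a Lexogen QuantSeq kit, per the labels' protocols. The deposited files hold raw counts per gene, which the authors did not normalize. Per the submitters' processing notes, Bowtie2 and bedtools were used with the build Sscrofa11.1. The sources used here do not give parameters, strand use, or how multiply matching and primate reads were treated.

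Lines of a repeated symbol were summed (none is a member), 18168 genes that reached 10 counts in any library were kept, and libraries were scaled by TMM in edgeR 4.0.16 (R 4.3.3). Ratios used a prior count of 0.5 with exact conditional binomial (Clopper-Pearson) intervals. They cover counting error only, since each ratio compares single libraries. No molecular identifiers are mentioned, so copied reads could not be told from separate molecules. The test over 2 and 2 libraries was edgeR's quasi-likelihood test with Benjamini-Hochberg adjustment and 2 residual degrees of freedom, tested on simulated data. The spread within a side includes the other factor, genotype or state. Each SE is the fold change divided by the square root of F. The labels do not say how many animals a library holds, so p-values measure only the spread between these libraries. DESeq2 1.42.0, limma 3.58.1, other scalings and filters, a block and leaving out each library were alternatives. The fits with a block or without a library had fewer residual degrees of freedom. The members and gene lists were chosen with earlier results of these data known. Other genes were named by rule: per list, up to 4 past the threshold, or else the 2 of largest mean ratio with at least 100 counts. The other named genes (EIF2AK3, PPP1R15A, CEBPG, ATF3, PSAT1, GPT2, MTHFD2, FGF21, STC2, ERN1, ATF6, HSP90B1) were chosen after their values were seen. Positions are from the RefSeq table of Sscrofa11.1, which holds all 10 members.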

Additional observations from a re-analysis of the deposited data

Results flagged for a closer look

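SESN2 and GDF15 each differed in opposite directions after transplantation in the genotypes. For SESN2 the difference of the log2 ratios, CD39/CD46/CD55/TBM minus CD39/CD55, was -2.30, from 77 and 274 counts in the CD39/CD46/CD55/TBM graft and untransplanted kidney and 719 and 470 in CD39/CD55. For GDF15 it was 4.16, from 20 and 3 counts in CD39/CD46/CD55/TBM and 8 and 23 in CD39/CD55. Each pair is 1 graft and 1 untransplanted kidney, so neither difference was tested against a spread between animals.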

How the results depend on the processing

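The members' log2 ratios within pairs and their counts of calls stayed within the counting intervals or within 1.5 times under DESeq2 size factors, without ribosomal RNA and mitochondrial genes, and with a prior count of 2 (180 of 180 values). In the transplantation test, 225 genes rose and 493 fell. These counts became 431 and 865 under DESeq2's Wald test, 543 and 1035 without a filter, 1124 and 1681 with genotype as a block, and ranged from 186 to 1051 and from 392 to 1349 when 1 library was left out. The 0 calls between genotypes became 12 higher and 5 lower under DESeq2's Wald test and 133 and 171 with state as a block, and ranged from 0 to 14 and from 0 to 4 when 1 library was left out. After leaving out a library, the transplantation log2 fold change ranged from -0.11 to 1.0 for ASNS, from -1.90 to 1.06 for SESN2, from -0.57 to 2.38 for GDF15 and from -5.11 to 0.13 for SLC7A5. SESN2 was also -0.35 with limma voom and -0.34 with genotype as a block. The genotype log2 fold change ranged from -0.49 to 1.42 for ATF4, from -0.31 to 1.1 for DDIT3, from -1.35 to 0.021 for XBP1, from -2.25 to 0.73 for GDF15, from -0.24 to 0.43 for HSPA5 and from -0.21 to 0.25 for HERPUD1. HERPUD1, at 0.00076 with all libraries, was -0.0029 with DESeq2 size factors, -0.0029 with DESeq2's Wald test and -0.019 without a filter. A side left with 1 library was assumed to vary like the other, and the cause of these changes was not tested. The fit with genotype as a block matches graft and untransplanted kidney by genotype. The labels give no replicate numbers that would pair animals. Below about 10 counts, as for CHAC1 and GDF15, only large differences could be seen.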

Other observations

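Of 13 tested p53 targets, 2 fell and none rose over both genotypes in edgeR's quasi-likelihood test, where 2.71% and 1.24% of all genes did. That list leaves out SESN2, GDF15 and BBC3, which p53 also controls and of which BBC3 rose. In CD39/CD46/CD55/TBM 3 of the 13 were called higher and 3 lower in the graft, where 15.9% and 16.3% of all genes were. In CD39/CD55 it was 1 and 4, where 13.2% and 13.7% of all genes were called. RRM2B, a subunit of ribonucleotide reductase, fell, with 140 and 183 counts in the CD39/CD46/CD55/TBM and CD39/CD55 grafts against 641 and 818 in the untransplanted kidneys (log2 fold change -1.96, SE 0.41, adjusted p = 0.0206). TP53I3, a quinone oxidoreductase, fell, with 19 and 92 counts against 221 and 608 (-2.72, SE 0.65, adjusted p = 0.0348). Neither passed without the untransplanted CD39/CD55 kidney (adjusted p = 0.0514 for RRM2B and 0.0726 for TP53I3), and over the alternatives adjusted p ranged from 0.000115 to 0.0514 and from 7.01e-06 to 0.0726. CDKN1A, the cell cycle inhibitor p21, had 145 and 92 counts against 49 and 136, so its log2 ratios of 1.85 (1.38 to 2.35) in CD39/CD46/CD55/TBM and -0.41 (-0.81 to -0.02) in CD39/CD55 have the signs of GDF15. MDM2 had 574 and 300 counts against 463 and 264, with log2 ratios of 0.60 and 0.33. CDKN1A and MDM2 were chosen after their values were seen.

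Genes with the pattern most like a member were sought among 10461 genes with at least 400 counts, by the root mean square difference of centred log2 levels over the 4 libraries. For DDIT3 they were RBPMS (0.019), CADPS2 (0.039), LRRFIP1 (0.040), HS6ST3 (0.048) and TBC1D1 (0.053). RBPMS, an RNA-binding protein gene, had 3322 and 2449 counts in the CD39/CD46/CD55/TBM and CD39/CD55 grafts against 1524 and 1488 in the untransplanted kidneys. For HSPA5 they were RWDD4 (0.024), TYW5 (0.028), TARDBP (0.035), SARS (0.040) and UCKL1 (0.041). TARDBP, which encodes the RNA-binding protein TDP-43, had 581 and 866 counts against 1162 and 891. With 4 libraries such likeness is a description only.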
